A study of Limonium bicolor with 5 samples.

Results

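The cellulose, lignin and xylem wall genes of Limonium bicolor leaves numbered 87 of the 18327 genes in the deposited table. A gene belonged to them when the description of its paired Arabidopsis locus held any of 11 words or phrases, irrespective of its values. Each of the 87 pairs with a different Arabidopsis locus, and their identifiers run in the order of these loci. Whether each stands for a separate Limonium gene was not tested. Cellulose synthase took 32 genes, laccase 17, fasciclin 14, COBRA 10 and xylem 5. Cinnamyl alcohol or cinnamyl-alcohol took 6, cinnamoyl coa reductase 2 and caffeoyl 1, while irregular xylem and ferulate took 0. RNA with poly(A) tails came from first true leaves of tissue-cultured plants of this salt-secreting species, taken at 5 stages with 1 library each. Per the labels, stage A was the undifferentiated leaf, stage B the leaf with differentiated salt glands, stage C with differentiated stomata, stage D with a differentiated epidermis, and stage E the mature leaf. Each stage pooled many leaves, about 5000, 4000, 2000, 1000 and 1000 in stages A to E. The labels name no genotype, treatment or age in days. The labels speak of a pair of sequencing lanes per stage as biological replicates, but the table has 1 column per stage, so no spread between replicates was known and no test across stages was possible.

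Cellulose is spun at the plasma membrane by rosettes of cellulose synthase (CESA) proteins. In Arabidopsis CESA1, CESA3 and the CESA6 type build the primary wall of growing cells, and CESA4, CESA7 and CESA8 build the thick secondary wall of xylem and fibres. Lignin stiffens and waterproofs that secondary wall: its building blocks, the monolignols, are made from phenylalanine, and laccases and peroxidases link them in the wall. In a leaf, the water-conducting vessels of the veins are the main lignified cells, and they die as they mature.

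Values are RPM, read counts scaled to a common library total without division by gene length, so levels are compared here between stages of a gene and not between genes. The read totals behind the scaling were recovered by taking the smallest value above 0 in each stage as 1 read. They ran from 5939374 reads (stage A) to 16556653 reads (stage B), and need not equal the reads sequenced. By these totals 3 reads were worth between 0.181 and 0.505 RPM. A gene was called higher or lower by size alone: a difference of at least 1 on the log2(RPM + 1) scale, with the higher stage at 5 RPM or more. The interval after a fold of RPM is the exact 95% counting interval (Clopper-Pearson), which covers counting error only. All 87 genes reached 1 RPM in some stage and 75 reached 5 RPM, so 12 could not be called. In whole leaves, more cells of a type and more RNA per cell cannot be told apart. The leaf genes RBCS1A, LHCB2.1, CA1, PSAD1 and RCA, all of photosynthesis, were present in every library and summed to 575, 1925, 13997, 34757 and 8799 RPM in stages A to E. RCA gave most of this sum in every stage. All but RBCS1A, which was highest in stage C, peaked in stage D. LHCB2.1 alone of these genes was lower in stage E (78.6 RPM) than in stage A (116 RPM). Stage C differed from its neighbours according to the Arabidopsis chromosome of the paired locus, as described near the end, and results with stage C are given with that in view.

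The wall genes as a whole stood highest in stages C and D. Their 87 values summed to 2350, 2867, 4986, 4791 and 3743 RPM in stages A to E. Among the 75 that reached 5 RPM, the peak lay in stage A for 3, in B for 3, in C for 29, in D for 31 and in E for 9. Stage D was thus the peak of 41.3% of these genes, against 11.2% of the 15603 genes of the table that reached 5 RPM; after scaling these shares were 46.7% and 17.6%. With stage C left out, a choice made after the values were seen, stage D was the peak of 45 of 67 members (67.2%), against 16.1% of 14709 genes.

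**Figure D1:**
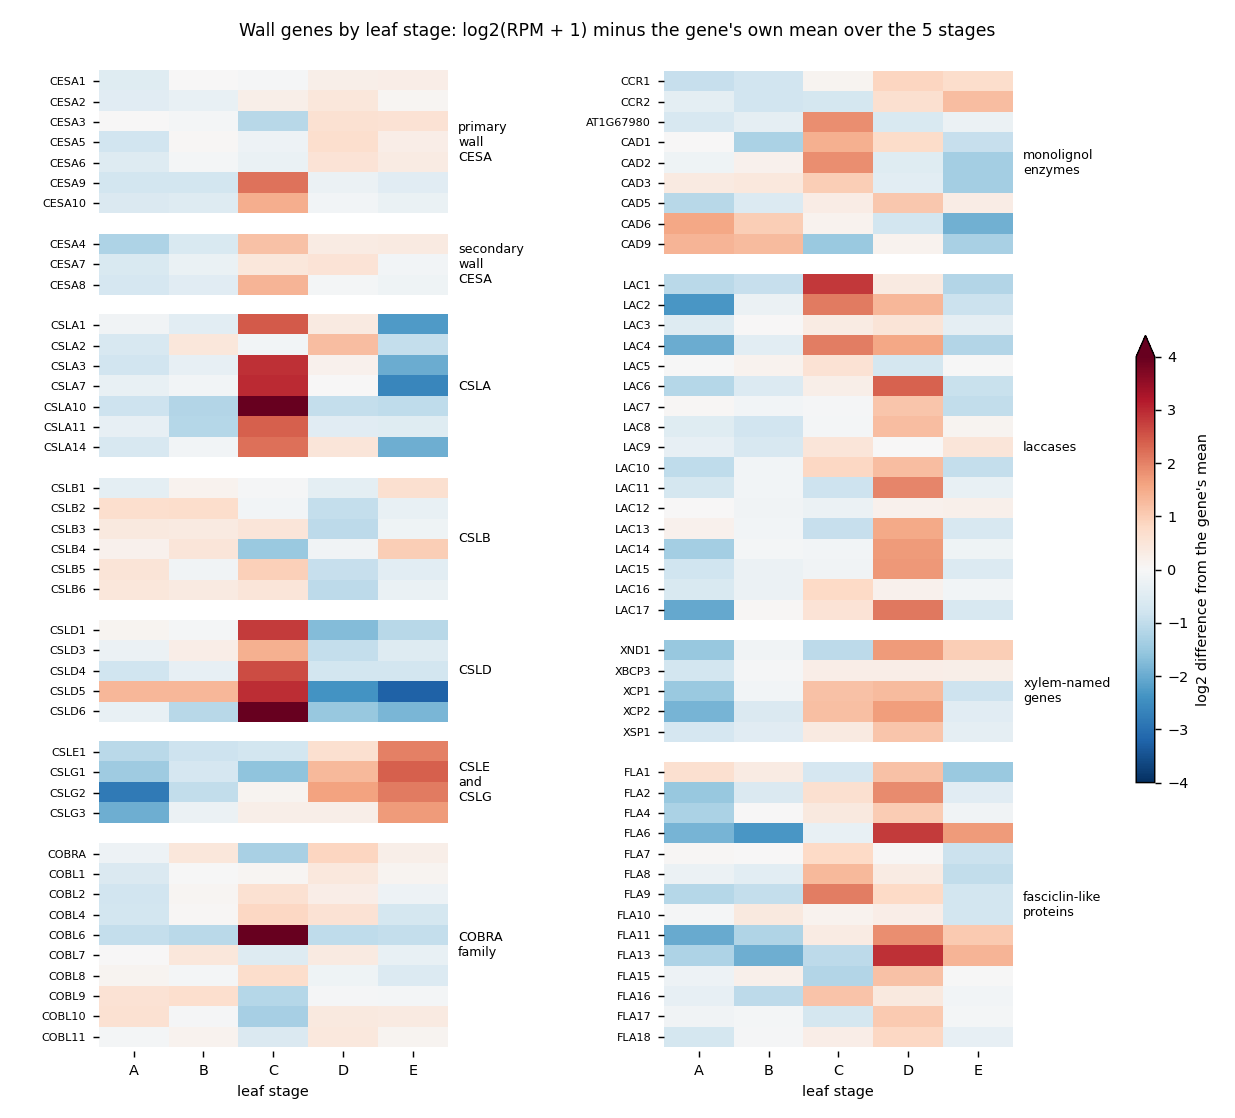
Heat map of the 87 wall genes (rows, grouped by role) in stages A to E (columns). Colour gives log2(RPM + 1) minus the mean of that gene over the 5 stages, red above and blue below, with the darkest red at 4 or more. Laccases and fasciclin-like proteins are mostly reddest in stage D, CSLA and CSLD genes in stage C, and CSLE1 and the CSLG genes in stage E.

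Between neighbouring stages, the counts moved as follows. In stage B against stage A, 8 of 87 wall genes were higher (9.20%) and 1 was lower (1.15%), against 7.47% and 3.1% of all 18165 genes examined, so the share of higher genes lay near that of the table. In stage C against stage B, 31 were higher (35.6%) and 5 lower (5.75%), against 15.3% and 23% of all genes. In stage D against stage C, 25 were higher (28.7%) and 20 lower (23.0%), against 17.4% and 19.5%, so the lower share lay near that of all genes. In stage E against stage D, 5 were higher (5.75%) and 30 lower (34.5%), against 13.1% and 6.65%.

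Stage D was also set directly against stage B, which avoids stage C. There 25 wall genes were higher (28.7%) and 5 lower (5.75%), against 10.5% and 19.5% of all genes. Their median log2 difference was 0.61, whereas that of all genes was -0.29. Over the whole series, stage E against stage A, 18 were higher (20.7%) and 9 lower (10.3%), close to the 18.6% and 13.7% of all genes. After median-of-ratios scaling, stage D had 38 higher and 3 lower wall genes than stage B, against 15.3% and 11.5% of all genes. With the same scaling stage E had 2 higher and 39 lower than stage D, against 6.12% and 10.2%.

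Among the cellulose synthases of the primary wall, 7 genes were measured and their sum was higher in the later stages. They summed to 1152, 1329, 2038, 1980 and 1781 RPM in stages A to E. None of the 7 passed the rule in stage D against stage B, where 10.5% of all genes were higher and 19.5% lower. All 7 nevertheless stood higher there, with a median log2 difference of 0.60. After scaling CESA2, CESA3 and CESA6 passed the rule, where 15.3% of all genes were higher. CESA1 (AT4G32410), present in every primary wall rosette, had 139, 196, 187, 229.8 and 233 RPM in stages A to E. CESA3 (AT5G05170), its other fixed partner, had 458, 429, 208, 684 and 674 RPM in stages A to E. CESA3 was thus lowest in stage C, where it fell 2.06-fold against stage B (1.97 to 2.15), a call lost after scaling, while CESA1 differed by less than the rule.

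The CESA6-type genes, of which 1 at a time fills the last place in the rosette, differed in their profiles. CESA6 (AT5G64740) had 135, 183, 158, 279 and 243 RPM in stages A to E, and CESA5 (AT5G09870) had 103, 185, 153, 280.5 and 212 RPM. Both peaked in stage D; stage C stood slightly below stage B for both, an order that turned after scaling. CESA2 (AT4G39350) had 127, 144, 209, 241 and 184 RPM. CESA9 (AT2G21770), by contrast, had 98.7, 98.6, 749, 140.03 and 121 RPM, a 7.59-fold higher level in stage C than in stage B (7.20 to 8.001). CESA10 (AT2G25540), a close relative of CESA1, had 90.2, 93.4, 375, 126 and 113 RPM in stages A to E. CESA9 and CESA10, with a sharp peak in stage C, pair with loci of chromosome 2. Against the mean of stages B and D, their stage C stood at 2.66 and 1.78 on the log2(RPM + 1) scale. The median of all genes of that chromosome was 0.06. CESA3, which dipped most, pairs with a locus of chromosome 5 and stood at -1.38, against a median of -0.50 there. The part of the chromosome pattern in these values was not tested. The CESA genes resemble each other closely in sequence. How reads matching several of them were assigned is not given in the sources used here. In stage E against stage A, CESA5 alone of the 7 passed the rule, 2.06-fold higher (1.88 to 2.25), a call lost after scaling. Of all genes, 18.6% were higher in that comparison.

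The secondary wall trio was highest in stage C or D. CESA4 (AT5G44030) had 21.9, 34.7, 121, 67.3 and 68.7 RPM in stages A to E. CESA8 (AT4G18780) had 37.7, 43.8, 155, 57.1 and 53.5 RPM. Both rose in stage C against stage B, CESA4 by 3.47-fold (3.16 to 3.82) and CESA8 by 3.54-fold (3.26 to 3.86). CESA7 (AT5G17420) lacked that peak, with 44.6, 57.9, 94.9, 101 and 64.0 RPM in stages A to E. In stage D against stage B all 3 stood higher without passing the rule, by 1.94-fold for CESA4, 1.74-fold for CESA7 and 1.30-fold for CESA8. Of all genes, 10.5% were higher there. After scaling CESA4 and CESA7 passed the rule, where 15.3% of all genes were higher. Only CESA4 passed in stage E against stage A, at 3.14-fold (2.61 to 3.80), where 18.6% of all genes were higher.

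The 22 cellulose synthase-like (CSL) genes, named for their likeness to cellulose synthases, split by family. The 7 CSLA genes, a family that makes mannans, peaked in stage C apart from CSLA2. They summed to 112, 204, 591, 341 and 72.9 RPM in stages A to E. CSLA2 (AT5G22740) had 74.3, 158, 107, 275 and 59.7 RPM in stages A to E. CSLA3 (AT1G23480) had 21.7, 30.1, 292, 42.6 and 8.88 RPM. The other 5 stayed under 9 RPM in stages A, B, D and E and reached between 19.2 and 73.8 RPM in stage C. In stage E against stage D, 5 of 7 CSLA genes fell and 0 rose, against 6.65% and 13.1% of all genes. CSLA2 fell by 4.60-fold (4.26 to 4.97) and CSLA3 by 4.80-fold (3.94 to 5.90). The steepest falls were of low genes: CSLA1 had 0.0772 RPM in stage E, a single read, against 5.62 RPM in stage D, and CSLA14 (AT3G56000) had 0.154 RPM in stage E against 5.19 RPM in stage D. CSLA7 (AT2G35650) fell 15.9-fold (7.53 to 40.3), to 0.541 RPM in stage E, against 8.61 RPM in stage D.

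The 5 CSLD genes, a family with known roles in Arabidopsis in tip-growing cells and in the new wall of dividing cells, were all highest in stage C. Their sum was 108, 114, 537, 20.04 and 21.7 RPM in stages A to E. CSLD5 (AT1G02730), which acts at the cell plate, had 78.8, 78.8, 242, 5.01 and 2.32 RPM in stages A to E. It fell 15.7-fold in stage D against stage B (12.6 to 19.9) and 34.0-fold in stage E against stage A (23.5 to 51.0). The markers of dividing cells CYCB1;1, CYCB2;2, CDKB2;1, KNOLLE and MCM5 summed to 1537, 1049, 395, 80.0 and 20.2 RPM in stages A to E. MCM5 made up most of the sum up to stage D, with 1246, 735, 247, 64.5 and 4.56 RPM over the series. Only MCM5 and CYCB2;2 fell at every step. CYCB1;1, CDKB2;1 and KNOLLE were higher in stage B than in stage A, and higher in stage E than in stage D. CSLD5 and each of the 5 markers were lower in stages D and E than in any earlier stage. In stage C against stage B CSLD5 rose 3.07-fold (2.88 to 3.27), whereas 4 of the 5 markers stood lower in stage C and CDKB2;1 had 42.6 RPM in stage C and 23.3 RPM in stage B. Their part in the changes of CSLD5 was not tested. CSLD3 (AT3G03050), needed for root hairs in Arabidopsis, had 17.3, 24.6, 56.6, 10.2 and 13.98 RPM in stages A to E. CSLD6 (AT1G32180) had 3.87, 1.75, 158, 1.10 and 0.695 RPM in stages A to E, a peak in 1 library.

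CSLE1 and the 3 CSLG genes ran the other way and were all highest in the mature leaf. Their sum was 66.0, 112, 141, 371 and 797 RPM in stages A to E. All 4 rose in stage E against stage A, where 18.6% of all genes were higher. CSLE1 (AT1G55850) had 47.1, 56.0, 60.2, 157 and 409.96 RPM in stages A to E, 8.70-fold higher in stage E than in stage A (7.71 to 9.84). CSLG2 (AT4G24000) had 4.88, 20.05, 44.2, 125 and 174 RPM, a difference of 35.7-fold (24.8 to 53.4). CSLG3 (AT4G23990) differed by 14.6-fold (10.4 to 21.2) and CSLG1 (AT4G24010) by 15.6-fold (11.8 to 21.2). CSLG1 was the exception in the middle of the series, with 7.21 RPM in stage C, below its neighbours B (14.7 RPM) and D (60.4 RPM). The CSLG loci lie side by side on Arabidopsis chromosome 4, so reads may have been shared among them.

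The 6 CSLB genes were low. CSLB4 (AT2G32540) had 20.2, 25.4, 5.74, 15.9 and 36.2 RPM in stages A to E, and no other member of the family passed 8 RPM. CSLB2 (AT2G32620) fell in stage D against stage B, 4.90-fold (3.04 to 8.24). CSLB1 (AT2G32610) and CSLB4 rose in stage E against stage D, 2.38-fold (1.69 to 3.40) and 2.27-fold (1.94 to 2.65). With CSLE1, CSLG1 and CSLG3 they were the 5 wall genes called higher in stage E than in stage D; after scaling, the calls of CSLB1, CSLB4 and CSLG1 were lost.

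COBRA proteins are anchored outside the plasma membrane and guide the orientation of cellulose fibrils. None of the 10 family genes passed the rule in stage D against stage B, where 10.5% of all genes were higher and 19.5% lower. None passed it in stage E against stage A either, where 18.6% of all genes were higher and 13.7% lower. COBRA (AT5G60920) had 31.2, 49.5, 14, 66.1 and 42.8 RPM in stages A to E. COBL1 (AT3G02210) varied less, with 31.3, 47.2, 49.8, 63.4 and 51.4 RPM, and COBL2 (AT3G29810) had 14.7, 27.2, 39.6, 31.2 and 22.1 RPM. COBL4 (AT5G15630), the member tied to secondary walls in Arabidopsis, had 5.22, 9.54, 17.3, 14.4 and 5.33 RPM in stages A to E. It was the only COBRA gene called lower in stage E against stage D, by 2.69-fold (2.05 to 3.58). COBL6 (AT1G09790) had 35.1 RPM in stage C and between 1 and 2 reads in each of the other libraries.

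**Figure D2:**
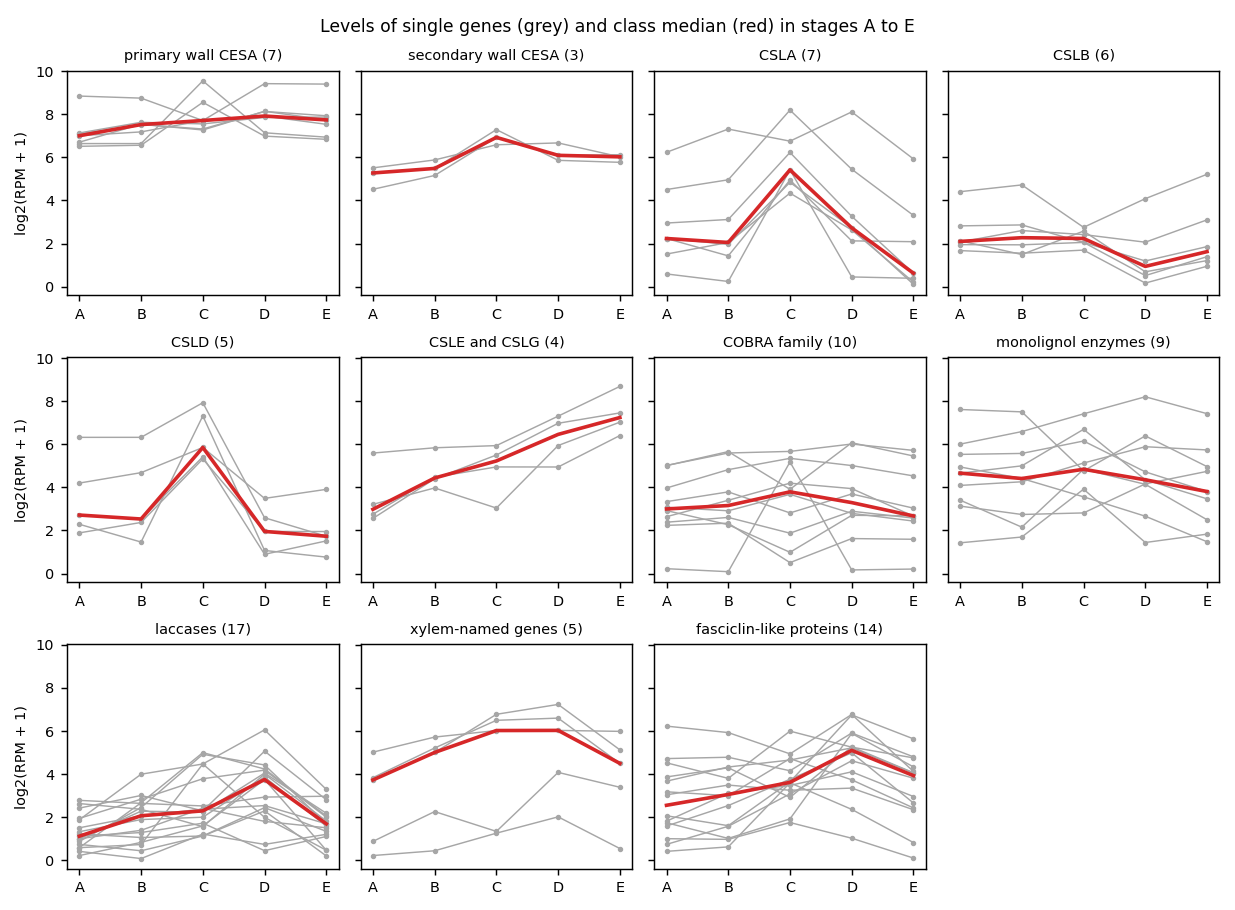
Level of each wall gene as log2(RPM + 1) in stages A to E (grey lines), drawn per role with the number of genes in brackets; the red line is the median of the genes. The medians of laccases and fasciclin-like proteins are highest in stage D and lower in stage E, CSLA and CSLD genes spike in stage C, and CSLE and CSLG genes are highest in stage E.

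Genes for the last steps of monolignol synthesis, mostly reductases and dehydrogenases, did not move as a block. Of 9 genes, 4 were higher and 2 lower in stage D against stage B, and 3 were higher and 4 lower in stage E against stage A. Of all genes, 10.5% were higher and 19.5% lower in the first comparison, so the share of lower enzymes lay near it, and 18.6% and 13.7% in the second. CCR1 (AT1G15950), the cinnamoyl-CoA reductase of developmental lignin in Arabidopsis, had 15.99, 18.1, 34.0, 58.0 and 52.2 RPM in stages A to E. It rose 3.20-fold in stage D against stage B (2.81 to 3.66). CCR2 (AT1G80820), known for defence responses, had 7.74, 5.68, 6.02, 16.9 and 25.7 RPM, highest in the mature leaf. CAD5 (AT4G34230), a main cinnamyl alcohol dehydrogenase of lignin, had 63.1, 95.1, 169, 293 and 169.9 RPM in stages A to E. It rose 3.08-fold in stage D against stage B (2.91 to 3.27).

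CAD2, CAD3, CAD6 and CAD9 were lower in the mature than in the undifferentiated leaf. CAD9 (AT4G39330) had 194, 180.1, 26.2, 82.6 and 30.1 RPM in stages A to E, 6.45-fold lower in stage E than in stage A (5.75 to 7.26). CAD6 (AT4G37970) fell 16.8-fold over the same span (10.8 to 27.1), with 29.8, 20.2, 10.8, 5.32 and 1.78 RPM in stages A to E. CAD2 (AT2G21730) and CAD3 (AT2G21890) peaked in stage C, at 102 and 69.9 RPM. CAD1 (AT1G72680) was the only wall gene called lower in stage B against stage A, 2.79-fold (1.90 to 4.10). In later stages CAD1 rose 4.83-fold in stage D against stage B (3.62 to 6.54) and fell 3.58-fold in stage E against stage D (2.70 to 4.82). Roles in lignin are less certain for CAD1, CAD2, CAD3, CAD6 and CAD9 than for CAD5. The 1 gene described as a caffeoyl-CoA methyltransferase (AT1G67980) reached 14.1 RPM in stage C and stayed under 3 RPM elsewhere.

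Laccases, the copper oxidases that couple monolignols in the wall, were highest in stage D. The 17 genes summed to 32.0, 63.3, 150, 237 and 47.3 RPM in stages A to E. In stage D against stage B, 9 of 17 were higher and 0 lower, where 10.5% of all genes were higher. In stage E against stage D, 9 were lower and 0 higher, where 6.65% of all genes were lower; both comparisons use the stage D library. Their median log2 differences were 1.57 and -2.09, beside -0.29 and 0.28 over all genes. The sum was 3.74-fold higher in stage D than in stage B (3.49 to 4.01) and 5.01-fold lower in stage E than in stage D (4.60 to 5.46).

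LAC4, LAC11 and LAC17 are the laccases known to lignify Arabidopsis stems. LAC17 (AT5G60020) had 2.69, 14.98, 21.2, 65.5 and 8.81 RPM in stages A to E. It already rose in stage B against stage A, 5.56-fold (3.36 to 9.88), and rose 4.37-fold in stage D against stage B (3.80 to 5.04). LAC11 (AT5G03260) had 4.38, 7.07, 3.92, 32.6 and 6.03 RPM and rose 4.61-fold in stage D against stage B (3.77 to 5.68). LAC4 (AT2G38080) had 0.842, 4.47, 29.3, 20.5 and 2.24 RPM, so it peaked in stage C, and fell 9.16-fold in stage E against stage D (6.26 to 13.9). All 3 were thus low in stages A and E.

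The other laccases called in stage D against stage B were LAC2, LAC6, LAC10, LAC13, LAC14 and LAC15. LAC6 (AT2G46570) had the largest fold of the 6, with 12.5 RPM in stage D and 0.785 RPM in stage B, a difference of 15.9-fold (9.08 to 30.3). LAC2 (AT2G29130) had 0.505, 5.38, 31.0, 17.9 and 3.17 RPM in stages A to E, with its peak in stage C. LAC15 (AT5G48100), known in Arabidopsis for oxidising seed coat pigments, had 13.6 RPM in stage D and 2.72 RPM in stage B. LAC1 (AT1G18140) had 21.2 RPM in stage C and 2.99 RPM or less in each other stage. LAC12 (AT5G05390) varied least, between 4.76 and 6.88 RPM. LAC3, LAC5, LAC7, LAC8, LAC9 and LAC16 stayed under 5 RPM in all 5 stages.

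Of the 5 genes named for xylem, 3 rose in stage D against stage B and 2 fell in stage E against stage D, against 10.5% of all genes higher and 6.65% lower in these comparisons. XCP1 and XCP2 are papain-like proteases that digest the contents of dying vessel elements. XCP1 (AT4G35350) had 13.3, 36.1, 89.5, 96.1 and 21.6 RPM in stages A to E. XCP2 (AT1G20850) had 12.3, 31.2, 109, 149.8 and 34.0 RPM. Each stood higher at every step up to stage D, and both already rose in stage B against stage A, XCP1 by 2.72-fold (2.14 to 3.48) and XCP2 by 2.54-fold (1.98 to 3.29). They fell 4.44-fold (3.91 to 5.06) and 4.41-fold (3.98 to 4.89) in stage E against stage D. XND1 (AT5G64530), a NAC factor that restrains xylem differentiation, had 0.842, 3.81, 1.54, 15.9 and 9.502 RPM in stages A to E. It rose 4.19-fold in stage D against stage B (3.17 to 5.61). XBCP3 (AT1G09850), a protease named for xylem and bark, passed the rule in none of the comparisons, with 31.5 to 64.4 RPM. XSP1 stayed under 5 RPM.

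Fasciclin-like proteins (FLA) are wall glycoproteins with adhesion domains. Of 14 genes, 6 were higher and 0 lower in stage D against stage B, against 10.5% and 19.5% of all genes; after scaling 11 were higher, against 15.3%. In stage E against stage D, 10 were lower and 0 higher, against 6.65% and 13.1% of all genes, and 5 were lower when the whole counting interval had to pass 2-fold. Their sum was 174, 174, 232, 541 and 203 RPM in stages A to E. FLA6 (AT2G20520) had 3.20, 2.05, 11.5, 107 and 48.8 RPM in stages A to E, a 51.9-fold difference between stages D and B (37.0 to 75.2). FLA13 (AT5G44130) had 2.36, 1.03, 2.80, 58.3 and 19.2 RPM, a 56.8-fold difference (35.3 to 98.0). These were the largest folds among the wall genes called in that comparison.

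FLA11 (AT5G03170), linked to secondary walls of Arabidopsis stems, had 0.673, 1.99, 7.49, 23.6 and 13.1 RPM in stages A to E. It rose 11.9-fold in stage D against stage B (8.30 to 17.5) and 19.4-fold in stage E against stage A (7.43 to 72.0). FLA4 (AT3G46550), whose loss makes Arabidopsis roots salt-sensitive, had 2.53, 7.67, 10.2, 16.3 and 6.80 RPM. It was the only FLA gene called higher in stage B against stage A, 3.04-fold (1.77 to 5.59). FLA1 (AT5G55730) had 74.1, 60.0, 29.8, 108 and 16.5 RPM in stages A to E. It was the only FLA gene lower in stage E than in stage A by the rule, at 4.502-fold (3.81 to 5.33). FLA2 (AT4G12730) fell 5.78-fold in stage E against stage D (4.48 to 7.54), with 5.33 RPM in stage E and 30.8 RPM in stage D. FLA16 (AT2G35860) had 22.1, 13.0, 62.9, 37.1 and 26.0 RPM in stages A to E and peaked in stage C, as did FLA8 (AT2G45470) at 25.4 RPM and FLA9 (AT1G03870) at 11.1 RPM.

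**Figure D3:**
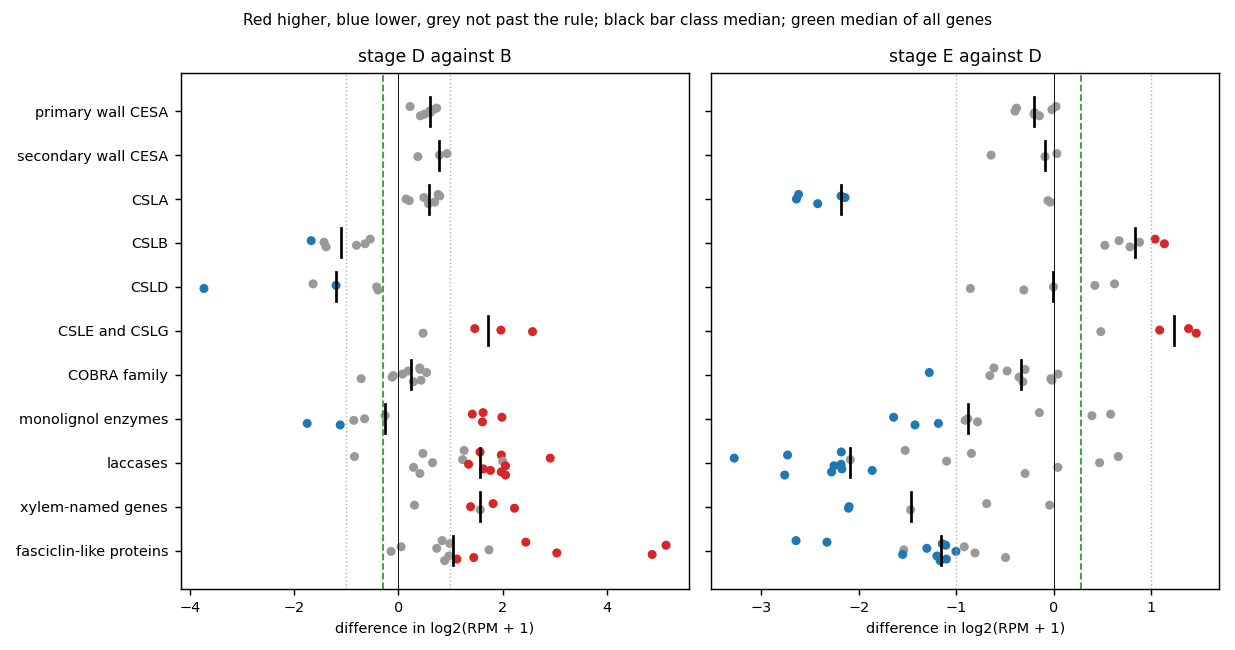
Difference in log2(RPM + 1) of each wall gene by role, in stage D against stage B (left) and stage E against stage D (right). Points are genes, red for higher and blue for lower by the rule of size, black bars are role medians, and the dashed green line is the median of all genes, at -0.29 on the left and 0.28 on the right. Laccases lie to the right of 0 in the left panel in all but 1 case and mostly to the left of 0 in the right panel.

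Other genes of the pathway were taken from lists set by Arabidopsis locus, of which 68 of 73 loci were in the table. CAD4, CCoAOMT1 and F5H, lignin enzymes whose descriptions the words did not match, were all higher in stage D than in stage B. Of all genes, 10.5% were higher there. F5H (AT4G36220), which makes the syringyl type of lignin possible, had 5.56, 18.5, 28, 159 and 52.4 RPM in stages A to E, and rose 8.62-fold in stage D against stage B (7.65 to 9.73). CCoAOMT1 (AT4G34050), a methyltransferase of the same route, had 33, 55.7, 82.8, 200.2 and 56.4 RPM. Of the 12 upstream enzymes, 4 were higher and 0 lower in stage D against stage B, against 10.5% and 19.5% of all genes. Stage E against stage D gave 0 higher and 10 lower, against 13.1% and 6.65%. HCT (AT5G48930), at the branch to monolignols, had 14.3, 34.8, 60.3, 181 and 90.2 RPM in stages A to E.

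PAL1 to PAL4, which open the phenylpropanoid route and also feed other phenolics, were not called in stage D against stage B. Each was among the upstream enzymes called lower in stage E against stage D. PAL3 was highest in stage A, at 340 RPM. PAL4 was highest in stage C, at 347 RPM, with 227 RPM in stage A. PAL1 (AT2G37040) had 1638, 808, 1513, 674 and 90.8 RPM in stages A to E. PAL2 (AT3G53260) had 1685, 1008, 291, 900.0 and 113 RPM. Both were highest in the undifferentiated leaf, although PAL1 was highest in stage C after scaling, and they fell 18.0-fold (17.0 to 19.2) and 14.97-fold (14.2 to 15.8) in stage E against stage A. Of 6 peroxidases linked to lignin, 3 were higher and 1 lower in stage D against stage B, against 10.5% and 19.5% of all genes, so the lower share lay near that of all genes. In stage E against stage D, 1 peroxidase was higher and 3 were lower (PRX64, PRX72 and PRX2), against 13.1% and 6.65% of all genes. PRX52 (AT5G05340) was the one called higher, 9.08-fold (8.32 to 9.91), to 323 RPM in stage E against 35.6 RPM in stage D.

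Of 24 measured regulators of secondary walls, 2 were higher (VND5 and VNI2) and 0 lower in stage D against stage B, where 10.5% of all genes were higher, a share near that of these regulators, and 19.5% were lower. In stage C against stage B, 10 were higher and 1 lower, against 15.3% and 23% of all genes. Of the 24, 8 never reached 5 RPM. VND6 (AT5G62380) and VND7 (AT1G71930), which start vessel formation, stayed at or under 2.17 RPM in all 5 stages. The lignin activator MYB58 (AT1G16490) had 19.0 RPM in stage C and 0.337 RPM or less in each other stage. VNI2 (AT5G13180), a repressor that binds VND7, had 6.40, 36.1, 8.12, 95.5 and 44.4 RPM in stages A to E. The fibre switches SND1 and NST1 had at most 1.04 RPM in stages A, B, D and E, with 6.37 RPM for SND1 and 4.90 RPM for NST1 in stage C.

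Of the 15 measured xylan genes, which build the hemicellulose of secondary walls, 1 (GXMT1) was higher and 0 lower in stage D against stage B, where 10.5% of all genes were higher, a share near that of these genes, and 19.5% were lower. None was called in stage E against stage D. Of these 15, 5 never reached 5 RPM. IRX15, IRX15-L and IRX14, genes of irregular xylem mutants, reached 2.73, 3.17 and 5.60 RPM at most. Of the other IRX-named genes, IRX14-L reached 3.08 RPM, IRX9-L 22.8 RPM, IRX10 39.7 RPM and IRX10-L 40.5 RPM. IRX10 (AT1G27440) had that peak in stage C, 4.66-fold above stage B (3.87 to 5.65). Among 8 partners of cellulose synthesis, CTL1 (AT1G05850), a chitinase-like protein, had 13.0, 21.1, 66.2, 97.6 and 34.8 RPM in stages A to E. CTL2 (AT3G16920), its counterpart in secondary walls, had 3.70, 7.25, 22.05, 21.4 and 9.04 RPM. KOR1 (AT5G49720), an endoglucanase of the CESA complex, fell 3.77-fold in stage E against stage A (3.53 to 4.03), with 410, 269, 77.8, 129.6 and 109 RPM in stages A to E.

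Markers of other cells moved along the series too. Of 5 phloem genes listed, all were measured and summed to 69.9, 83.5, 149, 305 and 357 RPM in stages A to E. SEOR1 gave 208 RPM of this in stage D, and SUC2 147 RPM in stage E. APL was also higher in stages D and E than in stages A to C. FTIP1 was highest in stage C, and SUC3 was lower in stages B to D than in stage A, before its peak in stage E. The 7 vessel genes, 5 of them wall genes described above, summed to 131, 206, 573, 474 and 243 RPM, highest in stages C and D. These 5 wall genes gave nearly all of the sum, which therefore repeats their values and is not a separate marker. VND6 and VND7, the vessel genes outside the wall genes, stayed at or under 2.17 RPM. Of the 4 root genes, 3 were measured, with sums of 23.1, 24.0, 96.3, 173 and 39.6 RPM; the peroxidase RCI3 gave nearly all of it, and PHT1;1 and SHR stayed under 4 RPM in every stage. The part of cell type shares in the changes of the wall genes was not tested.

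Values in stage C varied with the Arabidopsis chromosome of the paired locus. In all genes the median stepped down from chromosome 1 to chromosome 5, whereas in wall genes chromosome 4 stood above chromosome 3. Relative to the mean of stages B and D on the log2(RPM + 1) scale, stage C stood at a median of 0.32 for all genes of chromosome 1, 0.06 for chromosome 2, -0.17 for chromosome 3, -0.35 for chromosome 4 and -0.50 for chromosome 5. The wall genes gave 2.23 for 14 genes of chromosome 1, 1.004 for 19 of chromosome 2, -0.13 for 11 of chromosome 3, 0.03 for 18 of chromosome 4 and -0.57 for 25 of chromosome 5. Of members that reached 5 RPM, 9 of 14 on chromosome 1 and 10 of 15 on chromosome 2 peaked in stage C, against 38.0% and 28.3% of all genes there. On chromosome 5, 3 of 21 peaked in stage C, against 12.1% of all genes, and 17 in stage D, against 13.6%.

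CSLA and CSLD genes with loci on chromosomes 3, 4 and 5 also peaked in stage C, apart from CSLA2. CSLA2 (AT5G22740), on chromosome 5, had 158, 107 and 275 RPM in stages B, C and D. On chromosome 3, CSLA14 (AT3G56000) had 19.2 RPM in stage C and 3.14 RPM in stage B. CSLD3 (AT3G03050) had 56.6 RPM in stage C and 24.6 RPM in stage B. CSLD4 (AT4G38190) stood at 38.8 RPM in stage C and 4.17 RPM in stage B, CSLA1 (AT4G16590) at 27.6 RPM in stage C and 2.90 RPM in stage B, and CSLA11 (AT5G16190) at 29.8 RPM in stage C and 1.69 RPM in stage B. Calls in stage D against stage B included 5 higher wall genes of 14 on chromosome 1, 5 of 15 on chromosome 2, 0 of 10 on chromosome 3, 5 of 15 on chromosome 4 and 10 of 21 on chromosome 5, counting those that reached 5 RPM. Of all genes that reached 5 RPM, 12.7%, 12.5%, 11.0%, 13.2% and 11.6% on chromosomes 1 to 5 were higher. In stage E against stage D, 3, 6, 5, 5 and 11 of these wall genes on chromosomes 1 to 5 were lower, against 7.91%, 7.65%, 6.68%, 7.92% and 8.62% of all such genes. A difference between stages cannot be told apart from this pattern of stage C where a comparison includes that library.

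**Figure D4:**
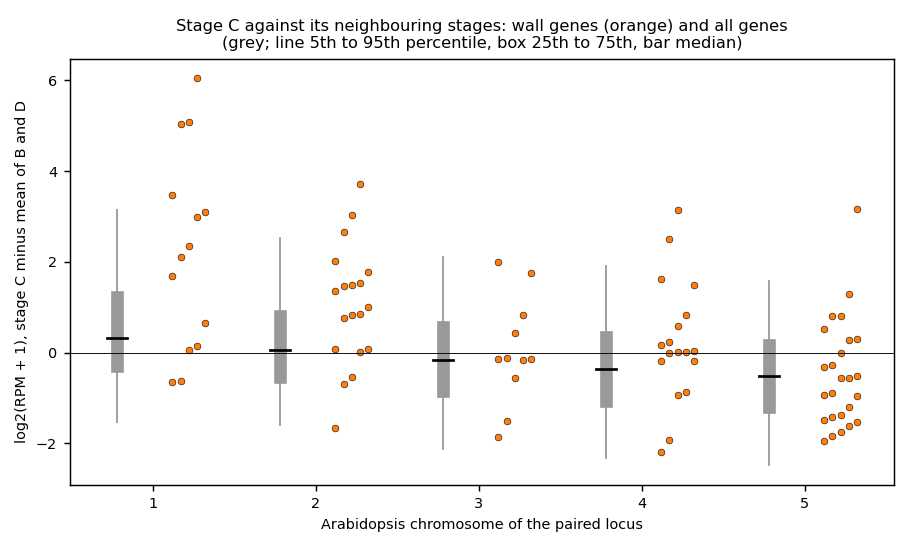
Stage C minus the mean of stages B and D, in log2(RPM + 1), by the Arabidopsis chromosome of the paired locus. Orange points are the 87 wall genes; grey shows all genes (line 5th to 95th percentile, box 25th to 75th, black bar median), whose medians step down with each chromosome, highest at 0.32 for chromosome 1 and lowest at -0.50 for chromosome 5.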

How the data were processed

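Per the labels' protocols, poly(A) RNA was reverse-transcribed with random hexamers and fragments of cDNA were size-selected before sequencing. The authors deposited 1 table of values per gene, named RPKM in its header. The deposited values are RPM: 100% of a stage's values divide to whole reads (tolerance 0.001 reads) by the same step whatever the gene, which would not be so after division by gene length, and this step gave the reads behind each value. For the aligner, the assembly and multiply matching reads, the method is not given in the sources used here. All 5 value columns were mapped to stages by name.

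With 1 library per stage, genes were called by size (at least 2-fold on RPM + 1, higher stage at 5 RPM) and no p-value was computed. Since reads were recovered, a count model was possible in form only, because no stage had a replicate. The 18165 genes that reached 1 RPM gave the background. Calls and intervals were tested on simulated counts that held counting error only, with 4-fold changes in genes averaging 20 RPM or more. Calls close to 2-fold or to 5 RPM, and spread between replicates, were not tested in this way. Alternatives were pseudocounts of 0.1 and 5, other minimums, a 4-fold rule, a counting-interval call, members without cellulose synthase-like descriptions, and median-of-ratios scaling over 17206 genes above 0 in every stage.

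The members, lists and comparisons were chosen with earlier results of these data known. Symbols and roles were paired with Arabidopsis loci by hand. Genes were named by role: the known CESA and xylem genes, the 3 with the largest sums, the 2 called genes that rose and that fell most in stage D against B, E against D and E against A, and the sharpest peak; some others were added after their values were seen, to account for each role. A search for genes of similar profile was planned but not used, since 5 stages are too few for a correlation. No reference sequence was used here. Python 3.11.15, numpy 2.4.6, pandas 2.3.3, scipy 1.17.1 and matplotlib 3.10.9 were used.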

Additional observations from a re-analysis of the deposited data

How the results depend on the processing

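No paired analysis was possible because each stage had 1 library, and no library could be left out of a comparison for the same reason. The counts of wall genes called moved by over 1.5 times in the cases that follow. A 4-fold rule left 2 higher and 0 lower in stage B against A, 19 and 1 in C against B, 9 higher in D against C, 9 and 1 in D against B, 0 and 17 in E against D, and 8 and 5 in E against A. A minimum of 20 RPM left 5 higher and 0 lower in B against A, 16 higher in D against C, 16 higher in D against B, 15 lower in E against D and 11 higher in E against A. Calls by the counting interval gave 5 higher and 0 lower in B against A and 2 higher in E against D. Without the genes described as cellulose synthase-like, 66 genes gave 5 higher in B against A, 19 higher in C against B, 9 lower in D against C, 2 lower in D against B, 0 higher in E against D and 5 lower in E against A. A pseudocount of 5 gave 0 lower in B against A, 3 lower in D against B and 3 higher in E against D, a pseudocount of 0.1 gave 8 lower in C against B, and no minimum gave 8 lower in D against B.

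Scaling by median of ratios left 38 higher and 3 lower in D against B and 2 higher in E against D. It changed the fold of the summed wall genes from 1.22 to 1.10 in B against A, 1.74 to 2.16 in C against B, 1.67 to 2.20 in D against B, 0.781 to 0.606 in E against D and 1.59 to 1.46 in E against A, and turned the direction in D against C, from 0.961 to 1.02. These shifts follow from the factors themselves, which ran from 0.864 for stage D to 1.14 for stage B. Among the other pathway genes it left 0 lower in D against B and 2 higher in E against D. With scaling, 0 wall genes had their highest value in stage B; with stage C left out, 5 did so in stage A and 7 in stage B, both alternatives added after the values were seen. The median log2 difference of the wall genes became 0.93 in C against B, 0.97 in D against B and -1.01 in E against D after scaling, and 1.02, 0.93 and -0.94 with the median of the same chromosome subtracted; over genes that reached 5 RPM it was 0.37 in B against A and 0.21 in D against C. Of 522 gene comparisons, scaling lost 11 calls and added 33, a pseudocount of 5 lost 29, a pseudocount of 0.1 added 13, and none was reversed. In stage A, with a recovered total of 5939374 reads, a value of 0.505 RPM rests on 3 reads, so low values there are the least certain.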
